A study of Mus musculus with 12 samples.

Results

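The molecular chaperones of the heat shock, DNAJ and CCT families were followed in bulk RNA-Seq of W-20 cells, a mouse bone marrow stromal cell (BMSC) line. Members were the protein-coding genes whose symbols begin with *Hspa*, *Hspb*, *Hspd*, *Hspe*, *Hsph*, *Hsp90*, *Dnaja*, *Dnajb*, *Dnajc*, *Hsf* plus a digit or *Cct2* to *Cct8*, together with *Tcp1*. The rule used names and no measured value, and found 90 of the 56980 genes in the count matrix. It also took in 5 genes grouped by their letters alone, such as *Hspbp1*, *Hspbap1* and *Hsf2bp*, and these are kept apart as a group of their own. Of the 90 members, 79 had a total of at least 10 counts over the 12 libraries and were tested, 60 had a mean of at least 10 CPM (counts scaled to the size of the library), and 25 a mean of at least 100 CPM.

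The 12 libraries came from 4 groups of 3. Unmodified W-20 cells (WT) and W-20 cells of a line titled Y428F were each exposed for 2 hours to 50 nM parathyroid hormone (PTH) or to its vehicle, PBS. Per the study's methods, mutant lines were made by introducing Flag-tagged YAP, the Hippo pathway coactivator, from a plasmid with a CMV promoter and selecting positive clones with puromycin. The study's text describes the mutant cells compared with WT cells by bulk RNA-Seq as carrying a serine-to-alanine substitution of a LATS1 site of YAP together with Y428F, whereas the library titles give Y428F alone, and the name Y428F is used for them throughout. The genotype label of the Y428F libraries reads WT, so groups were taken from the titles. No library from cells given wild-type YAP or an empty plasmid was analysed here, so the YAP substitutions, the introduced plasmid and clonal differences cannot be told apart. Libraries held between 17127897 and 19057319 counts, with a median of 17740980. The labels do not say that replicates were separate cultures, so p-values measure the spread between these libraries, which may be technical. Exons of 35 members overlap an exon of another gene with more than 100 counts, and whether the libraries were stranded is not given in the sources used here, so reads of such pairs may be miscredited. Among members described here these include *Dnajc30* with *Bud23*, *Dnajb4* with *Fubp1*, *Tcp1* with *Acat2* and *Cct6a* with *Psph*, all on opposite strands.

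Chaperones bind unfolded or partly folded proteins, and several classes, such as HSP70, HSP90 and the CCT ring, release them in cycles driven by ATP. J-domain (DNAJ) proteins bring clients to HSP70 and stimulate its ATPase, HSP90 acts later on clients such as kinases and receptors, and the CCT ring (TRiC) encloses actin, tubulin and other proteins while they fold. Heat shock factor 1 (HSF1) drives many of the cytosolic members when unfolded protein accumulates, whereas the members of the endoplasmic reticulum (ER) are driven by the unfolded protein response. In stromal and osteoblastic cells the ER chaperones are known for their part in collagen secretion.

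Expression was checked against the stromal label before the chaperones were compared. The most abundant of 13 stromal and osteoblast markers was *Col1a2*, with a mean of 9997 CPM, and 9 of the 13 were at 1 CPM or more, whereas *Thy1* was at 0 counts in all 12 libraries. The summed level of the 13 markers was 24590.3 CPM in WT cells with vehicle, 24380.1 with PTH, 16178 in Y428F cells with vehicle and 13862 with PTH, and 9 of the 12 tested markers were lower in Y428F cells with vehicle. Most markers of other cell types were low. The sums in WT and Y428F cells with vehicle were 1.67 and 3.56 CPM for 7 hematopoietic markers (most abundant *Ptprc*, with *Cd3e* at 0), 1.42 and 8.91 for 4 endothelial markers (most abundant *Cdh5*) and 0.624 and 3.67 for 4 epithelial markers (most abundant *Krt8*, with *Epcam* at 0). The 4 adipocyte markers summed to 27.1 and 6.84 CPM, nearly all of it *Fabp4*, with *Adipoq* at 0, and the 4 skeletal muscle markers to 0.0366 and 0 CPM, with *Myh1* the most abundant and *Myod1* and *Myog* at 0. The part of these shifts in the chaperone results was not tested. In bulk RNA, a lower level in fewer cells and less RNA in every cell cannot be told apart.

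Promoters of 3 members are shown because they hold the core of the heat shock element, the binding motif of HSF1. Windows of 300 bases, 250 before and 50 from the annotated start of the canonical transcript (GENCODE vM39, GRCm39), were searched on both strands for GAANNTTC and TTCNNGAA, which can overlap each other. At least 1 of the 2 was in 19 of the 90 members (21.1%) and in 14.3% of 21770 protein-coding promoters. It was in 10 of 14 members (71.4%) listed as classical HSF1 targets, and in 1 of the 9 CCT ring genes, *Cct5*. The windows of *Hspd1* and *Hspe1*, both among the 10, overlap and share the same matched bases on opposite strands, which were counted for both genes. The 250 bases before the start follow, 5′ to 3′ on the strand of the gene, with matches in capitals. All 3 genes are on the minus strand.
Hspd1 chr1:55127184-55127433: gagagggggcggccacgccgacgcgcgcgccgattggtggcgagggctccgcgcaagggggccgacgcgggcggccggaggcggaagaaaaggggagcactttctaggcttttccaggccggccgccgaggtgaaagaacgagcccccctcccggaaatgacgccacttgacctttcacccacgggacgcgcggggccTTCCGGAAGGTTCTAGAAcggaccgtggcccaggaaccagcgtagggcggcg
Hsph1 chr5:149559807-149560056: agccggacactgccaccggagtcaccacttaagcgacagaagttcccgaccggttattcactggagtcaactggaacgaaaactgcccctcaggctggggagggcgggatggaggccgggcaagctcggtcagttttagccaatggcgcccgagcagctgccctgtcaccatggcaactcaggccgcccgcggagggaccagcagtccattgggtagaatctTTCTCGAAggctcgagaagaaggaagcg
Hspa1b chr17:35178215-35178464: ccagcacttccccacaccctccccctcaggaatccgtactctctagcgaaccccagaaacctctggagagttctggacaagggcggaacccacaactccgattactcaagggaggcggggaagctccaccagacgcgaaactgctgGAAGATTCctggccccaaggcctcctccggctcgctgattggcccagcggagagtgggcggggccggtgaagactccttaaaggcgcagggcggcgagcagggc
The *Hspd1* window, which reads into *Hspe1* on the other strand, holds 3 overlapping matches between positions -52 and -42, counted at their first base, the *Hsph1* window holds 1 at -28 and the *Hspa1b* window 1 at -104. Between the lines, Y428F cells had more of *Hspd1* and *Hsph1* and less of *Hspa1b*, by the values given for each gene further on. A match is a description of letters, and binding was not measured.

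Per length, the cytosolic chaperones dominated the set. Levels between genes were compared as RPKM, which is CPM divided by the length in kilobases of the canonical transcript. *Hsp90ab1*, the constitutive cytosolic HSP90, had a mean of 1469 RPKM over the 12 libraries, and *Hspa8*, the constitutive HSP70, had 976 RPKM. They were followed by the ER chaperones *Hsp90b1* at 262 and *Hspa5* (BiP) at 234 RPKM and by the mitochondrial HSP70 gene *Hspa9* at 219 RPKM. These 5 genes made up 57.4% of the summed RPKM of the members. The stress-inducible HSP70 genes *Hspa1a* and *Hspa1b* were at 0.793 and 1.80 RPKM. *Hspb1*, a small heat shock protein gene abundant in many cell types, had 7 counts over all 12 libraries and was not tested. The other 10 members that were not tested were *Cct6b*, *Dnajb7*, *Dnajc6* and *Hspb3*, with between 2 and 9 counts in all, and *Cct8l1*, *Dnajb3*, *Dnajb8*, *Dnajb13*, *Dnajc5b* and *Dnajc5g*, which had 0 counts in every library.

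The members together held 1.40%, 1.33% and 1.32% of the counts of the 3 WT vehicle libraries and 1.43%, 1.41% and 1.40% of those of the WT PTH libraries. The Y428F vehicle libraries held 1.74%, 1.74% and 1.79%, and the Y428F PTH libraries 1.88%, 1.85% and 1.81%. Every Y428F library was above every WT library. PTH libraries lay above vehicle libraries in Y428F cells, whereas in WT cells the ranges overlapped, with vehicle replicate 1 at 1.399% and PTH replicate 3 at 1.397%.

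PTH moved a limited set of chaperones in WT cells, with small folds and mostly upward. Of the 79 members tested, 17 rose and 4 fell at an adjusted p under 0.05 (quasi-likelihood F test of edgeR, Benjamini-Hochberg over the 17691 genes tested), or 26.6% of members. Over all genes tested, 13.4% were called, 7.42% upward and 6.01% downward. Of the 60 members at 10 CPM or more, 16 rose and 3 fell (31.7%), beside 13.3% upward, 8.71% downward and 22% in all of the 9104 genes at that level. In this comparison the libraries of the 2 groups did not overlap for 26.4% of all genes. The median log2 fold change was 0.067 for the members and -0.019 for all genes. In Y428F cells 14 members rose and 5 fell (24.1%), beside 6.61% and 5.78% of all genes and 12.4% in either direction, with medians of 0.085 and -0.0067. Of the 60 members at 10 CPM or more, 13 rose and 3 fell with PTH in this line, beside 12% and 8.47% and 20.5% in all of such genes, and the groups did not overlap for 30.8% of all genes. Calls shared by the 2 lines were 9 of the 17 and 14 members that rose (52.9% and 64.3%) and 4 of the 4 and 5 that fell (100% and 80%), and no member was called in opposite directions. Shared calls were not counted over all genes, so whether this sharing is particular to the members was not tested. Without WT vehicle replicate 2 or 3 or WT PTH replicate 1, the members that rose in WT cells numbered 11, 10 and 11. Without Y428F vehicle replicate 2 or 3 or Y428F PTH replicate 2, those that rose in Y428F cells numbered 9 each time. Scaled by library totals alone, 10 members rose and 4 fell in WT cells, so 71.4% of the calls were upward in place of 81.0%.

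**Figure D1:**
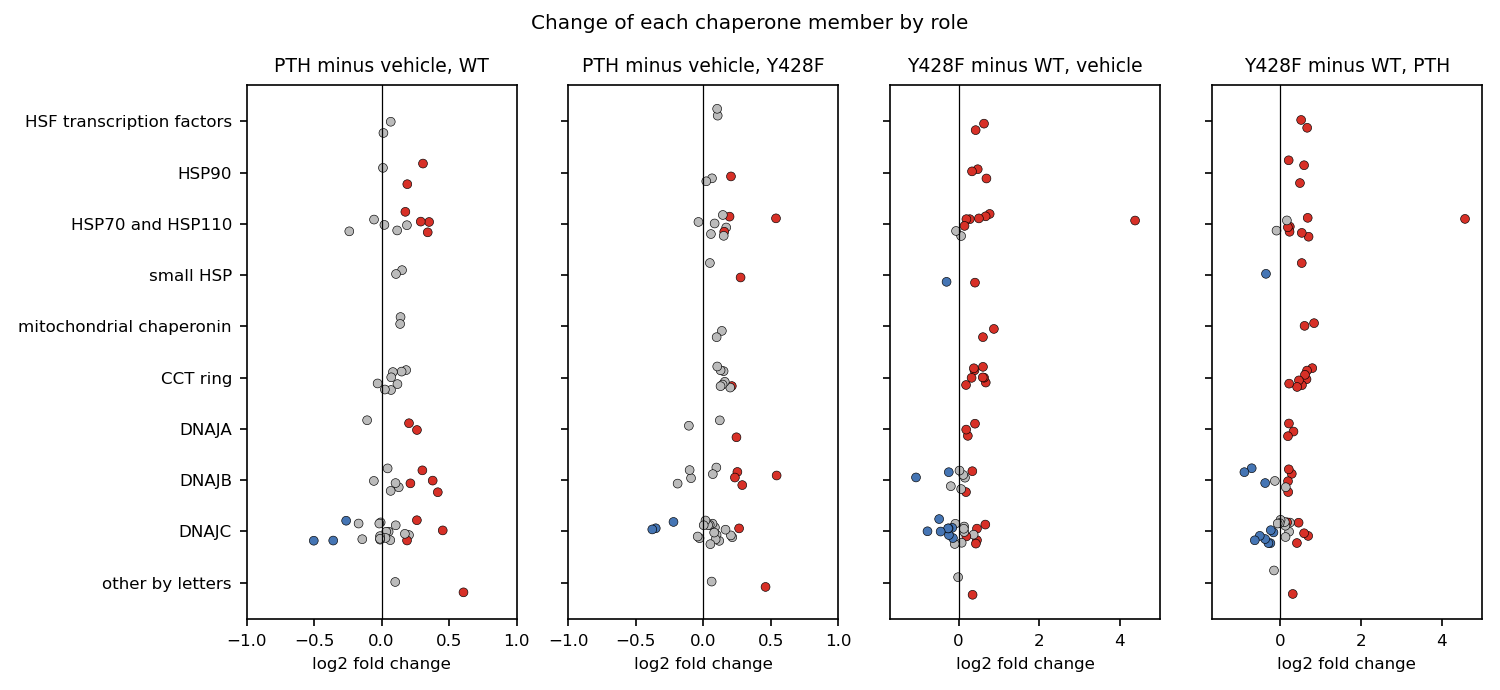
Log2 fold changes (x axis) of the 60 members with a mean of at least 10 CPM, by role (y axis), for PTH in each line and for Y428F against WT cells with each treatment. Each point is 1 gene, red where called higher, blue where called lower and gray where not called at an adjusted p under 0.05. The PTH panels and the line panels have different x ranges. All 8 CCT points lie to the right of 0 in both line panels.

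No heat shock transcription factor gene passed the test with PTH. *Hsf1* had 45.9, 48.5 and 48.9 CPM with vehicle and 47.9, 51.6 and 45.1 CPM with PTH in the 3 WT libraries each, overlapping ranges with a log2 fold change of 0.013 (adjusted p = 0.945). In Y428F cells it had 65.4, 61.9 and 64.8 CPM with vehicle and 70.7, 65.1 and 70.9 with PTH. The log2 fold change of *Hsf2*, a paralog active in development, was 0.067 in WT and 0.10 in Y428F cells (adjusted p = 0.756 and 0.581). *Hsf3*, *Hsf4* and *Hsf5* were each at or under 2.05 CPM in every group and none was called.

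Of the HSP90, HSP70 and HSP110 chaperones, 2 of the 3 HSP90 genes and 5 of the 14 HSP70 and HSP110 genes rose with PTH in WT cells. In Y428F cells 1 and 4 rose, and among all genes at 10 CPM or more 13.3% (WT) and 12% (Y428F) rose. Without WT vehicle replicate 2, the WT calls of *Hsp90b1*, *Hspa1b* and *Hsph1* were lost. Without Y428F vehicle replicate 1, the Y428F calls of *Hsp90aa1*, *Hspa1b*, *Hspa5* and *Hspa8* were lost. *Hsp90aa1* (ENSMUSG00000021270.14, from 110656842 to 110669166 on chromosome 12, minus strand), the stress-inducible cytosolic HSP90, had 532, 493 and 509 CPM in the WT vehicle libraries and 657, 647 and 593 CPM in the WT PTH libraries, which did not overlap. Its log2 fold change was 0.31 (SE 0.055, adjusted p = 0.000662). In Y428F cells it went from 803, 826 and 847 to 960.1, 964 and 929 CPM, again without overlap, by 0.20 log2 units (SE 0.055, adjusted p = 0.0169). That call in Y428F cells was lost without Y428F vehicle replicate 1 or 2 (adjusted p = 0.0765 and 0.0537). *Hsp90ab1*, its constitutive partner, differed by 0.01 log2 units (adjusted p = 0.954) and 0.021 (adjusted p = 0.875), with overlapping libraries in both lines. *Hspa4l*, an HSP110-type nucleotide exchange factor for HSP70, had 38.9, 37.4 and 36.9 CPM with vehicle and 48.4, 50.6 and 44.3 CPM with PTH in WT cells. In Y428F cells it had 51.4, 53.0 and 56.0 and 72.7, 78.5 and 81.5 CPM. Neither pair of groups overlapped, and the log2 fold changes were 0.34 (SE 0.068, adjusted p = 0.00163) and 0.54 (SE 0.064, adjusted p = 1.04e-05). *Hspa4*, of the same subfamily, rose in WT cells from 187 ± 3.52 to 228 ± 15.9 CPM (SD, n = 3), by 0.29 log2 units (adjusted p = 0.00142), and had 0.15 (adjusted p = 0.0902) in Y428F cells. *Hsph1* (HSP110) had 0.18 log2 units (adjusted p = 0.0369) in WT cells, a call lost in 4 of the fits that left out a WT library, and 0.083 (adjusted p = 0.373) in Y428F cells. *Hspa8* had 0.12 log2 units (adjusted p = 0.151) in WT and 0.15 (adjusted p = 0.0488) in Y428F cells, the latter lost in 7 of the 12 fits that left out a library.

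The inducible *Hspa1a* and *Hspa1b* are near-identical neighbours on chromosome 17, and the division of reads between them by RSEM is uncertain. *Hspa1b* (ENSMUSG00000090877.4, from 35175412 to 35178214 on chromosome 17) had 7.19, 5.86 and 6.17 CPM with vehicle and 10.6, 9.04 and 7.69 CPM with PTH in WT cells, and 1.59, 2.07 and 1.42 and 2.61, 3.54 and 2.86 CPM in Y428F cells. The groups did not overlap in either line. Log2 fold changes were 0.51 log2 units (adjusted p = 0.0382) and 0.82 (adjusted p = 0.013). In WT cells the call was lost without WT vehicle replicate 2 or 3 or WT PTH replicate 1 or 2, and in Y428F cells without Y428F vehicle replicate 1 or 3 or Y428F PTH replicate 2. *Hspa1a* was not called (0.72 log2 units, adjusted p = 0.117 and 0.37, adjusted p = 0.622). Summed over both genes, the 3 libraries of each group read 8.73, 8.93 and 9.55 CPM in WT vehicle, 15.2, 13.7 and 11.6 CPM in WT PTH, 3.29, 2.78 and 2.13 CPM in Y428F vehicle and 3.77, 5.28 and 3.97 CPM in Y428F PTH. By this sum, which does not depend on how reads were divided, PTH libraries lay above vehicle libraries in both lines.

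In WT cells 2 of 4 DNAJA, 4 of 9 DNAJB and 3 of 25 tested DNAJC genes rose and 4 DNAJC genes fell. In Y428F cells 1, 4 and 1 rose and 1 DNAJA and 4 DNAJC genes fell. Without WT vehicle replicate 3, the WT calls of *Dnaja2*, *Dnajb4*, *Dnajb9*, *Dnajc3*, *Dnajc16* and *Dnajc28* were lost. Without Y428F vehicle replicate 3, the Y428F calls of *Dnaja4*, *Dnajb12*, *Dnajc13*, *Dnajc18*, *Dnajc28* and *Dnajc30* were lost. The DNAJC shares were 12% up and 16% down in WT and 4% up and 16% down in Y428F cells, beside 7.42%, 6.01%, 6.61% and 5.78% of all genes and 13.3%, 8.71%, 12% and 8.47% of those at 10 CPM or more. *Dnaja1*, a main partner of cytosolic HSP70, had 188, 193 and 183 CPM with vehicle and 233, 219 and 224 CPM with PTH in WT cells, and 218, 220.4 and 223 and 267, 253 and 264 CPM in Y428F cells. Groups were separate in both lines, with log2 fold changes of 0.26 (SE 0.051, adjusted p = 0.00137) and 0.24 (SE 0.051, adjusted p = 0.0026). *Dnajb1* (HSP40), the partner used in disaggregation, rose by 0.21 log2 units (adjusted p = 0.0153) and 0.29 (adjusted p = 0.00159). The WT call was lost without WT vehicle replicate 2 or WT PTH replicate 3 (adjusted p = 0.0605 and 0.0658). *Dnajb4* had 0.30 log2 units (adjusted p = 0.0271) in WT cells, lost in 4 of the fits without a WT library, and 0.096 (adjusted p = 0.567) in Y428F cells. *Dnajb6*, which suppresses aggregation, and *Dnajb12*, anchored in the ER membrane, were called in Y428F cells (0.23 log2 units, adjusted p = 0.00465 and 0.25, adjusted p = 0.0166), the latter not without Y428F vehicle replicate 2 or 3 or Y428F PTH replicate 2. *Dnajc21*, a ribosome biogenesis factor, had 22.7, 19.96 and 21.1 CPM with vehicle and 32.9, 31.2 and 23.2 CPM with PTH in WT cells, 0.45 log2 units (SE 0.1, adjusted p = 0.00514). WT PTH replicate 3 was the lowest of its group but still above the vehicle libraries. *Dnajc13*, an endosomal protein, rose by 0.26 in WT and 0.26 log2 units in Y428F cells (adjusted p = 0.0128 and 0.013), calls lost without WT PTH replicate 2, and without Y428F vehicle replicate 3 or Y428F PTH replicate 2. *Dnaja2* also rose in WT cells, by 0.20 log2 units (adjusted p = 0.0268), lost without WT vehicle replicate 3 or WT PTH replicate 1 or 2.

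The 4 members that fell with PTH in WT cells were all of the DNAJC class, and all 4 fell in Y428F cells too. *Dnajc30*, a mitochondrial J-domain protein, had 22.1, 24.9 and 22.3 CPM with vehicle and 15.7, 17.5 and 15.7 CPM with PTH in WT cells, and 16.8, 15.6 and 18.5 and 13.0, 14.03 and 12.7 CPM in Y428F cells. All PTH libraries lay below all vehicle libraries of their line. The log2 fold changes were -0.50 (SE 0.092, adjusted p = 0.000804) and -0.35 (SE 0.095, adjusted p = 0.0176). *Dnajc18* went from 55.2 ± 2.17 to 43.0 ± 0.941 CPM in WT cells (-0.36 log2 units, adjusted p = 0.000623) and from 32.3 ± 1.29 to 27.7 ± 1.06 CPM in Y428F cells (-0.22, adjusted p = 0.0357, all mean ± SD, n = 3). *Dnajc16*, a membrane protein of the ER, fell, with log2 fold changes of -0.26 and -0.38 (adjusted p = 0.0104 and 0.000724). *Dnajc28* had 4.601, 4.83 and 4.99 CPM with vehicle and 2.71, 2.89 and 3.20 with PTH in WT cells, -0.71 log2 units (adjusted p = 0.0175), and -0.84 (adjusted p = 0.0218) in Y428F cells. Of these 4 genes, *Dnajc18* and *Dnajc30* in WT cells and *Dnajc16* in Y428F cells kept the call in all 12 fits that left out a library. In WT cells *Dnajc16* lost it without WT vehicle replicate 3 or WT PTH replicate 1, and *Dnajc28* without WT vehicle replicate 2 or 3 or WT PTH replicate 1 or 2. In Y428F cells *Dnajc18*, *Dnajc28* and *Dnajc30* lost it in 8, 4 and 4 of the 12 fits.

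*Dnajb5* had the largest difference between the responses of the 2 lines among members with at least 10 CPM. Its product is a cytosolic J-domain protein of the HSP40 type. In WT cells *Dnajb5* (ENSMUSG00000036052.15, from 42949747 to 42959425 on chromosome 4) had 15.4, 17.1 and 14.8 CPM with vehicle and 22.3, 19.99 and 20.7 CPM with PTH, which did not overlap, a log2 fold change of 0.42 (SE 0.09, adjusted p = 0.00344). In Y428F cells it had 13.0, 14.7 and 13.7 CPM with vehicle and 12.3, 13.1 and 13.2 CPM with PTH, which overlapped, at -0.10 log2 units (adjusted p = 0.583). The difference in response, Y428F minus WT, was -0.52 log2 units (95% interval -0.79 to -0.25), with an adjusted p of 0.119 over all genes, so it did not pass. No member passed this test by edgeR or by DESeq2, beside 0.413% of all genes by edgeR. At an unadjusted p under 0.05 there were 5 of the 79 members by edgeR, beside 1247 of all 17691 genes, and 3 members by DESeq2. The share of members by edgeR was thus no higher than that of all genes. Besides *Dnajb5* the 5 were *Hspa4l* at 0.20, *Hspa13* at 0.23, *Dnajc24* at 0.33 and *Dnaja4*, which was near 0 in Y428F cells, at -2.09 log2 units. *Dnaja4* was called without Y428F PTH replicate 1, which leaves the Y428F PTH group at 0 counts, and its fitted difference ran from -5.64 to -1.55 over the alternatives. In simulated counts the same test recovered 50% of genes whose response differed 1.5-fold and 86% of those differing 2-fold, so differences of 1.5-fold can be missed with groups of this size.

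**Figure D2:**
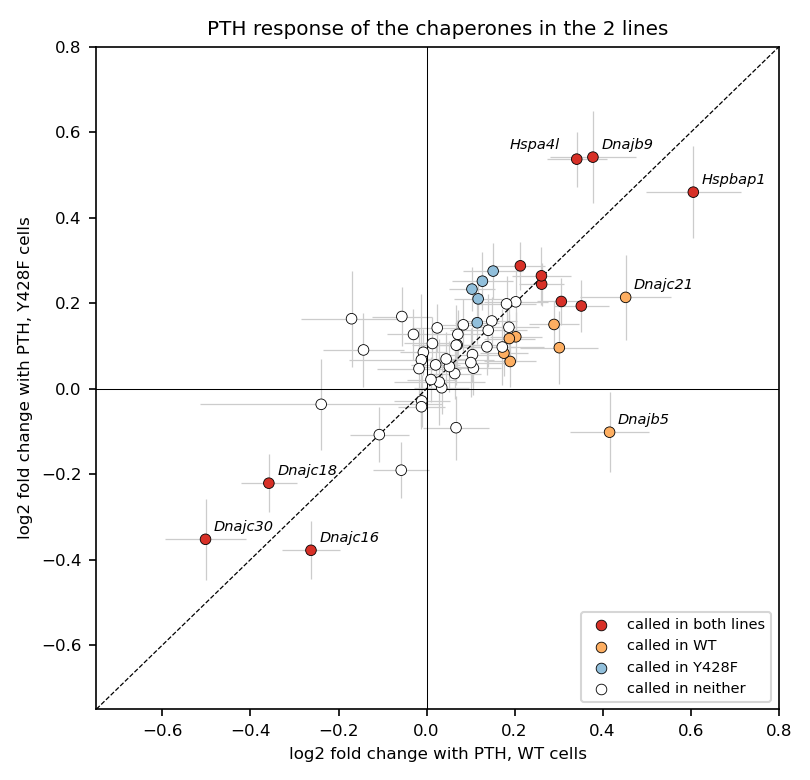
PTH response, as a log2 fold change, of the Y428F line (y axis) against the WT line (x axis) for the 60 members with a mean of at least 10 CPM. Points are genes, gray bars are 1 standard error in each direction, colors give the lines in which a gene was called and the dashed line marks equal responses. *Dnajb5* lies below the dashed line, at 0.42 in WT and -0.10 in Y428F cells.

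A list of 8 ER members held genes that act in the lumen or, as *Dnajc1* does, from the ER membrane. It did not cover every member of that membrane. It left out *Dnajc16*, which fell with PTH in both lines, and *Dnajb12*, which rose in Y428F cells. Of the 8, 4 rose under PTH in the WT line and 2 in the Y428F line, and none fell. Among all genes at 10 CPM or more, 13.3% and 12% rose. The 4 became 2, 1, 2 and 2 without WT vehicle replicate 2 or 3 or WT PTH replicate 1 or 2, and the 2 became 1 when any 1 of the 6 Y428F libraries was left out. *Hspa5* (ENSMUSG00000026864.14, from 34661982 to 34668880 on chromosome 2), which encodes BiP, the HSP70 of the ER, had 1124, 963 and 994 CPM with vehicle and 1345, 1357 and 1231 CPM with PTH in WT cells, without overlap. The log2 fold change was 0.35 (SE 0.062, adjusted p = 0.000538) in WT and 0.19 (SE 0.062, adjusted p = 0.0448) in Y428F cells, where the libraries read 1099, 1050.0 and 1069 CPM and 1261, 1231 and 1189 CPM. The Y428F call was lost in each of the 6 fits that left out a Y428F library. The *Hspa5* promoter is shown for its ER stress element, CCAAT and CCACG with 9 bases of any kind between them, which was in 3 members, *Dnajc3*, *Hsp90b1* and *Hspa5* (3.33% of members), and in 0.124% of all protein-coding promoters. Both ends of the match are in capitals, the gene is on the plus strand and the match begins at -67.
Hspa5 chr2:34661854-34662103: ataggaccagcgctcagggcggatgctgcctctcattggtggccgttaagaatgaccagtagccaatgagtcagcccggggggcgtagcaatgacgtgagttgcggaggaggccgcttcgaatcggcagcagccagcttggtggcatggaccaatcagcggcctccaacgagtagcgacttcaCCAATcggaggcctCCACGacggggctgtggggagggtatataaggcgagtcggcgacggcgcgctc
Of the 3 genes with this element, *Hspa5* rose with PTH in both lines, and *Dnajc3* and *Hsp90b1* in WT cells. *Dnajb9* (ERdj4), a J-domain partner of BiP, went from 24.0 ± 1.68 to 31.2 ± 1.04 CPM in WT cells (0.38 log2 units, adjusted p = 0.0128, lost without WT vehicle replicate 3) and from 11.6 ± 0.950 to 16.8 ± 2.60 CPM in Y428F cells (0.54, adjusted p = 0.00197, mean ± SD, n = 3). *Hsp90b1* (GRP94) and *Dnajc3* (P58IPK) had 0.19 log2 units (adjusted p = 0.0367) and 0.19 (adjusted p = 0.0341) in WT cells, both lost in 4 of the fits without a WT library, and were not called in Y428F cells (0.064 and 0.12). Among 19 other ER stress and ER folding genes, 3 rose and 3 fell in WT cells, 15.8% each way beside 13.3% and 8.71% of all genes at 10 CPM or more. Those that fell were *Atf4* (-0.59 log2 units, adjusted p = 6.16e-06), *Trib3* (-0.59, adjusted p = 0.000786) and *Ddit3* (CHOP, -0.52, adjusted p = 0.000279), genes of the PERK and ATF4 arm of the stress response, and those that rose were *Atf6*, *Manf* and *Xbp1*. In Y428F cells *Atf6* alone of the list rose and *Trib3* alone fell (-0.50 log2 units, adjusted p = 0.00214). *Serpinh1*, the collagen chaperone HSP47, had 2134 ± 178 and 2220.2 ± 28.1 CPM in WT cells and was called in no comparison.

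Of the other roles, none of the 8 tested CCT subunits passed with PTH in WT cells and only *Cct3* in Y428F cells (0.21 log2 units, adjusted p = 0.0137, lost without Y428F vehicle replicate 2 or Y428F PTH replicate 1). All 8 had positive log2 fold changes in Y428F cells, from 0.10 to 0.21, beside 54.7% of all genes at 10 CPM or more. In WT cells 7 of the 8 were positive, with a range of -0.030 to 0.18, beside 51.3% of such genes. The mitochondrial chaperonin genes *Hspd1* and *Hspe1* and the mitochondrial HSP70 gene *Hspa9* were not called in either line. The small heat shock gene *Hspb8*, which works with BAG3, rose in Y428F cells (0.28 log2 units, adjusted p = 0.00818) and had 0.15 (adjusted p = 0.168) in WT cells, and *Hspb6* was not called. *Hspbap1*, a member by its letters that encodes a protein binding HSPB1, had the largest rise in WT cells among called members with at least 2 CPM, from 10.00, 9.55 and 9.39 CPM to 15.9, 14.8 and 13.5 CPM. In Y428F cells it went from 10.1, 9.25 and 9.39 to 14.98, 12.7 and 11.8 CPM. Neither pair of groups overlapped, with log2 fold changes of 0.61 (SE 0.11, adjusted p = 0.00058) and 0.46 (SE 0.11, adjusted p = 0.00693). Outside the rule, 4 of 31 co-chaperone genes (12.9%) rose under PTH in the WT line and 2 (6.45%) in the Y428F line, *Ptges3* (p23) and *St13* (HIP), and none fell, shares near or under the 13.3% and 12% of all genes at 10 CPM or more. The HSP70 nucleotide exchange factor *Bag3* and the HSP70-HSP90 linker *Stip1* (HOP) had log2 fold changes of 0.07 and 0.068 in WT cells, neither called. Of 9 prefoldin and CCT partner genes, *Pdcl3* rose in both lines (0.41 log2 units, adjusted p = 0.000365 and 0.38, adjusted p = 0.000775) and *Txndc9* in Y428F cells (0.37, adjusted p = 0.00304), and of 5 mitochondrial protease genes *Yme1l1* rose in WT cells.

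**Figure D3:**
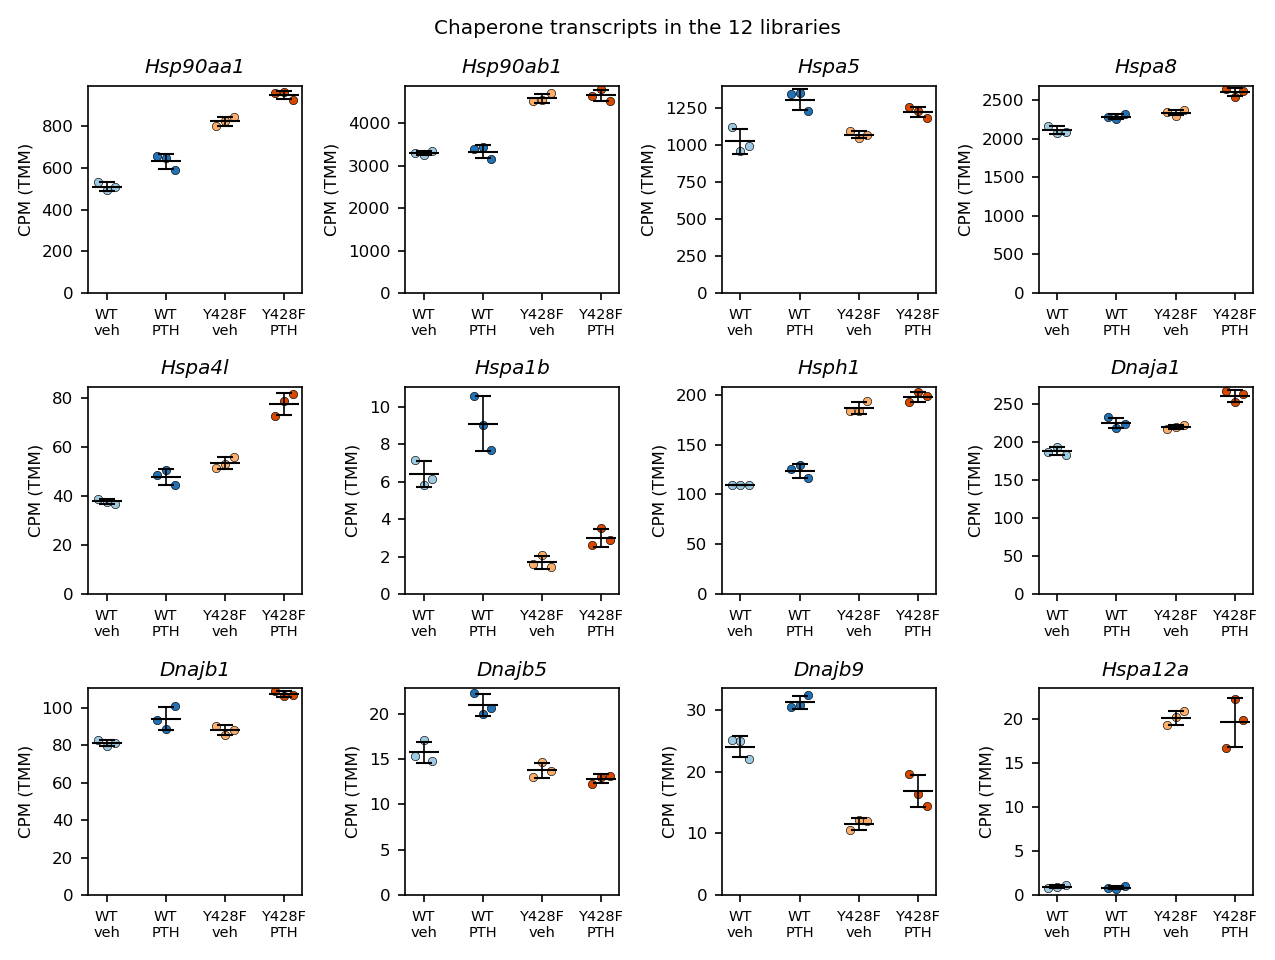
TMM-scaled CPM (y axis, from 0) of 12 chaperone genes in each of the 12 libraries, by group (x axis). Points are libraries, and horizontal lines with bars give the mean and SD of 3. The PTH points of *Dnajb5* lie above its vehicle points in the WT line alone, those of *Hspa1b* and *Dnajb9* do so in both lines, at lower levels in Y428F cells, and *Hspa12a* is near 1 CPM in WT and near 20 CPM in Y428F cells.

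More members were called between the lines than between treatments, and all 3 HSP90 genes, all 8 tested CCT genes and both mitochondrial chaperonin genes were higher in Y428F cells. With vehicle, 35 of the 79 members were higher and 19 lower in Y428F than in WT cells, or 68.4% called, beside 22.4%, 22.7% and 45.1% of all genes called higher, lower and in either direction. With PTH, 38 were higher and 17 lower, or 69.6%, beside 22.8%, 23% and 45.7%. Of the 60 members at 10 CPM or more, 34 were higher and 11 lower with vehicle, 56.7% and 18.3%, beside 30.4% and 33% of all such genes and 63.4% in either direction. With PTH 36 and 11 were called, 60% and 18.3%, beside 30.8% and 33.3% and 64.1% in either direction. The libraries of the 2 lines did not overlap for 53.8% of all genes with vehicle and 51.9% with PTH. The median log2 fold change of the members was 0.18 with vehicle and 0.19 with PTH, beside 0.012 and 0.019 for all genes. The 2 comparisons use different libraries. They shared 33 members called higher, 94.3% of the 35 and 86.8% of the 38, and 16 called lower, 84.2% of the 19 and 94.1% of the 17, with none called in opposite directions. Here too the sharing was not counted over all genes and cannot be read as particular to the members. Without the CCT ring, 27 members were higher and 19 lower with vehicle. Genes of a chromosome can differ together between lines, so each log2 fold change was also read after subtracting the median of its chromosome, which ranged from -0.24 to 0.25 over the autosomes with vehicle. Of the 54 members called with vehicle, 12 became smaller and 6 larger by over 1.5 times, and of the 55 called with PTH, 9 became smaller and 5 larger, while *Dnajc13* and *Hsp90b1* turned in sign. All 8 CCT subunits stayed above 0 after this step with vehicle, at 0.20 to 0.65, although *Cct2*, *Cct4* and *Cct5* were among the values that became smaller, and *Cct3* and *Cct7* among those that became larger.

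The CCT ring was higher in Y428F cells in each tested subunit. All 8 were called with vehicle and with PTH, with log2 fold changes of 0.18 to 0.67 (median 0.50) and 0.22 to 0.79 (median 0.57). The summed level of the 9 ring genes was 2166, 1960.3 and 1963 CPM in the WT vehicle libraries, and 2756.5, 2743 and 2832 CPM in the Y428F vehicle libraries. With PTH it was 2161, 2083 and 2210.0 CPM in WT and 3246, 2991 and 3018 CPM in Y428F cells. *Cct2* (ENSMUSG00000034024.9, from 116886897 to 116899744 on chromosome 10, minus strand), the beta subunit, measured 200.1, 181 and 181 CPM in the WT and 293, 291 and 313 CPM in the Y428F vehicle libraries, a log2 fold change of 0.67 (SE 0.056, adjusted p = 3.53e-09). *Cct5*, *Cct6a* and *Cct8*, the epsilon, zeta and theta subunits, were higher by 0.60, 0.63 and 0.60 log2 units. *Tcp1*, the alpha subunit, measured 437, 373 and 375 CPM in the WT and 516, 509 and 533 CPM in the Y428F vehicle libraries, 0.39 log2 units (adjusted p = 1.86e-05), and WT vehicle replicate 1 was the highest of its group. *Cct4* and *Cct3*, the delta and gamma subunits, were higher by 0.38 and 0.32 log2 units. *Cct7*, the eta subunit, differed least before chromosome medians were subtracted, at 0.18 log2 units (adjusted p = 0.0138) with vehicle. Its call was lost without WT vehicle replicate 2 or 3 or Y428F vehicle replicate 3. After the subtraction *Cct7* was at 0.35 and *Cct4* was the lowest of the 8, at 0.20. In the assembled complex each subunit occupies a fixed place. Of 9 prefoldin and partner genes, *Vbp1* and *Pfdn4* were higher and *Pfdn2* lower with vehicle, or 33.3% called beside 63.4% of all genes at 10 CPM or more.

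**Figure D4:**
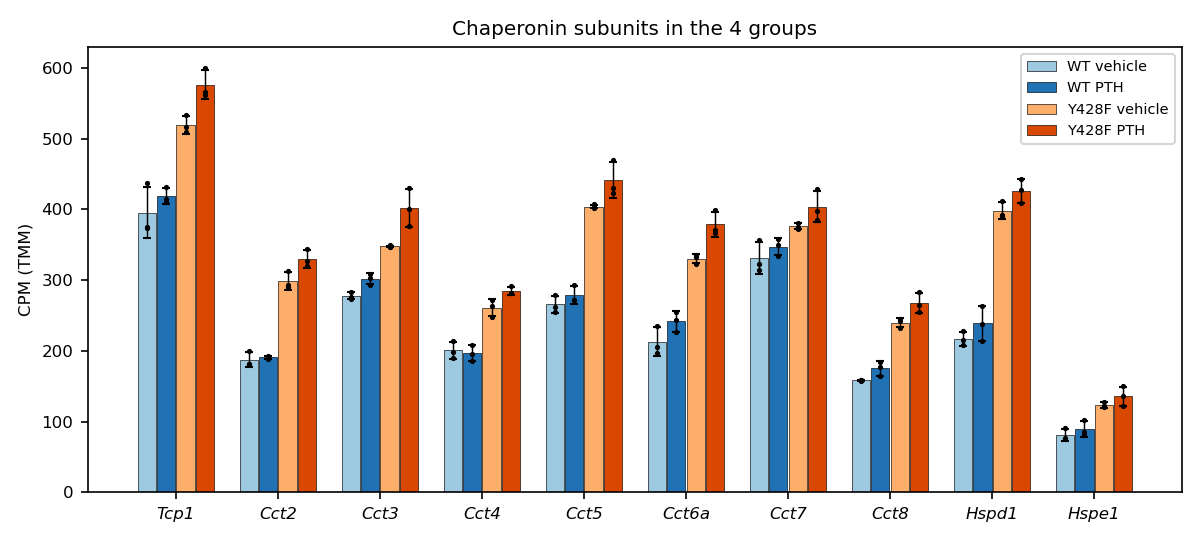
CPM (y axis, from 0) of the 8 tested CCT subunits and of *Hspd1* and *Hspe1* in the 4 groups. Bars are means, error bars are SD (n = 3) and points are libraries. Y428F libraries lie above WT libraries for every gene shown within the vehicle groups and within the PTH groups.

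The mitochondrial chaperonin genes *Hspd1* (HSP60) and *Hspe1* (HSP10) were also higher. They lie head to head on chromosome 1, with annotated starts 108 bases apart, and their exons overlap on opposite strands, so without knowledge of the library strand a share of reads could be credited to the wrong partner. *Hspd1* (ENSMUSG00000025980.15) measured 228, 215 and 208 CPM in the WT and 391, 392 and 412 CPM in the Y428F vehicle libraries, 0.87 log2 units (SE 0.066, adjusted p = 8.91e-10). With PTH it measured 264, 238 and 215 CPM against 428.01, 442 and 409 CPM, 0.84 log2 units (SE 0.066, adjusted p = 1.64e-09). *Hspe1* was higher by 0.60 log2 units (adjusted p = 6.64e-06) and 0.60 (adjusted p = 6.73e-06). All Y428F libraries exceeded all WT libraries for both genes. *Hspa9*, their HSP70 neighbour in the matrix, was higher by 0.28 log2 units (adjusted p = 0.002) and 0.23 (adjusted p = 0.00723). After subtracting the median of its chromosome, *Hspa9* was at 0.49 with vehicle and 0.45 with PTH. The matrix HSP90 gene *Trap1*, outside the rule, was higher by 0.50 and 0.57. Among 5 mitochondrial proteases, *Htra2* was higher and *Yme1l1* lower with each treatment, or 40% called, under the 63.4% and 64.1% of all genes at 10 CPM or more.

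The 14 listed HSF1 targets, of which 13 were tested, were chosen among the members from general knowledge, with earlier results of these data known. The list leaves out HSF1 targets outside the rule, such as *Bag3*, which is described apart. With PTH, 7 of the 13 rose and none fell in each line (53.8%, beside 13.3% and 12% upward among all genes at 10 CPM or more). The medians were 0.21 and 0.20. The 7 of WT cells became 3, 4, 4 and 4 without WT vehicle replicate 2 or 3 or WT PTH replicate 1 or 2, and the 7 of Y428F cells became 4 without Y428F vehicle replicate 1 and 5 or 6 without another Y428F library. Between the lines, 10 were higher and 2 lower in Y428F cells with each treatment (76.9% and 15.4%, beside 30.4% and 33% of all genes at 10 CPM or more with vehicle and 30.8% and 33.3% with PTH), and the 2 were *Hspa1a* and *Hspa1b*. *Hsph1* (ENSMUSG00000029657.16, from 149537636 to 149560156 on chromosome 5) measured 109, 109 and 109.6 CPM in the WT and 183, 183 and 194 CPM in the Y428F vehicle libraries, 0.77 log2 units (SE 0.054, adjusted p = 2.72e-10). *Hsp90aa1* and *Hsp90ab1* were higher by 0.69 log2 units (adjusted p = 1.94e-09) and 0.47 (adjusted p = 2.87e-07) with vehicle and by 0.59 and 0.49 with PTH. *Hspa4l* and *Hspa4*, the latter outside the target list, were higher by 0.50 and 0.67 log2 units. *Hspa8*, the most abundant HSP70 gene per length, was higher by 0.15 log2 units (adjusted p = 0.0213), a call lost without WT vehicle replicate 2 or Y428F vehicle replicate 1 or 3. *Hspb8* and *Dnaja1* were higher by 0.41 and 0.23, and *Dnajb4* by 0.34 with vehicle, while *Dnajb1* was called with PTH (0.19 log2 units, adjusted p = 0.00865) and not with vehicle (0.12, adjusted p = 0.108). *Hsf1* itself (ENSMUSG00000022556.12, from 76361558 to 76388138 on chromosome 15) was higher by 0.42 log2 units (SE 0.063, adjusted p = 1.1e-05) with vehicle and 0.52 (SE 0.063, adjusted p = 8.51e-07) with PTH, and *Hsf2* by 0.63 and 0.66. After subtracting the medians of their chromosomes, 0.22 and 0.28 remained for *Hsf1* and 0.38 and 0.40 for *Hsf2*. The same step gave larger values for *Hspa8* (0.38 with vehicle), *Dnajb4* (0.51 with vehicle) and *Dnajb1* (0.31 with PTH). Exons of *Hsf1* overlap those of *Bop1* and *Dgat1* on the opposite strand, and reads of these genes cannot be told apart if the libraries were not stranded.

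Of 31 co-chaperone genes outside the rule, 12 were higher and 5 lower in Y428F cells with vehicle (38.7% and 16.1%, 54.8% in all), beside 30.4%, 33% and 63.4% of all genes at 10 CPM or more, so the share called was under that of all genes at this level. With PTH 13 were higher and 6 lower (41.9% and 19.4%, 61.3% in all), beside 30.8%, 33.3% and 64.1% of such genes. *Fkbp5*, a peptidyl-prolyl isomerase of HSP90 complexes with steroid receptors, averaged 22.9 ± 1.60 CPM in WT and 45.7 ± 0.235 CPM in Y428F vehicle libraries (1.00 log2 units, adjusted p = 6.76e-10), and *Stip1* had 129.9 ± 1.495 and 226 ± 7.38 CPM (0.80, adjusted p = 1.29e-10, mean ± SD, n = 3). With PTH the log2 fold changes were 0.96 and 0.79. *Cacybp*, *Ptges3* and the HSP90 ATPase activator *Ahsa1* were higher by 0.71, 0.66 and 0.57, and *Cdc37*, the kinase loader of HSP90, was lower, with a log2 fold change of -0.22. *Bag3*, a further HSF1 target, was lower in Y428F cells, at 71.9 ± 7.90 against 92.0 ± 7.20 CPM with vehicle (-0.36 log2 units, adjusted p = 0.000889) and at -0.31 with PTH.

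The inducible HSP70 pair was lower in Y428F cells. *Hspa1b* differed by -1.91 log2 units (SE 0.19, adjusted p = 5.31e-08) with vehicle and -1.60 (SE 0.17, adjusted p = 1.58e-07) with PTH, and *Hspa1a* by -1.36 (adjusted p = 0.00236) and -1.71 (adjusted p = 0.000138). The summed level of both genes, given above, did not overlap between lines with either treatment, and its highest Y428F value, 5.28 CPM, was below its lowest WT value, 8.73 CPM. *Dnaja4*, a cytosolic partner of HSP70, was almost absent from Y428F cells. *Dnaja4* (ENSMUSG00000032285.16, from 54606147 to 54623601 on chromosome 9) had 212, 224 and 194 counts in the WT vehicle libraries and 156, 162 and 142 in the WT PTH libraries, against 5, 11 and 8 in Y428F vehicle and 4, 0 and 0 in Y428F PTH. Its log2 fold change was -4.73 (SE 0.27, adjusted p = 8.51e-12) with vehicle, and the value with PTH, -6.82, rests on 4 counts in 1 Y428F library. The fall with PTH in Y428F cells (-2.42 log2 units, adjusted p = 0.0213) was lost in 4 of the fits without a Y428F library. With 0 counts in 2 of the 3 Y428F PTH libraries the fitted size is poorly set, and it ran from -5.95 to -1.87 over the alternatives. Some exons of *Dnaja4* overlap those of *Skic8* on the opposite strand. The opposite extreme was *Hspa12a*, a distant relative of HSP70. *Hspa12a* (ENSMUSG00000025092.8, from 58784181 to 58932086 on chromosome 19, minus strand) measured 0.846, 0.910 and 1.13 CPM in the WT and 19.3, 20.2 and 20.9 CPM in the Y428F vehicle libraries, 4.38 log2 units (SE 0.16, adjusted p = 1.16e-14), and 0.766, 0.677 and 0.990 and 16.7, 22.3 and 19.8 CPM with PTH, 4.58 (SE 0.17, adjusted p = 1.35e-14). These are folds of 20.8 and 23.9.

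Of the 8 listed ER members, 2 were higher and 3 lower in the Y428F line with vehicle, and 2 and 2 with PTH. The 2 higher with vehicle became 1 without WT vehicle replicate 2 or 3 or Y428F vehicle replicate 1 or 3, and the 3 lower became 2 without WT vehicle replicate 1 or 2 or Y428F vehicle replicate 2. The 2 higher with PTH became 1 without Y428F PTH replicate 1. The 62.5% of the 8 called with vehicle is near the 63.4% of all genes at 10 CPM or more. *Dnajc16* and *Dnajb12*, also of the ER membrane, are not on this list. *Dnajc16* was lower with vehicle and with PTH (-0.26 and -0.38 log2 units). *Dnajb12* was higher with PTH (0.28) and not called with vehicle (0.16). *Dnajb9* was lower, at -1.06 log2 units (SE 0.11, adjusted p = 4.95e-08) with vehicle and -0.89 (SE 0.1, adjusted p = 2.84e-07) with PTH, and *Dnajc1*, a J-domain protein of the ER membrane, at -0.48 and -0.51. *Hsp90b1* was higher by 0.33 log2 units (adjusted p = 8.7e-05) and 0.21 (adjusted p = 0.00667). On chromosome 10, where *Hsp90b1* lies, the median gene was itself higher by 0.25 with vehicle and 0.26 with PTH, which leaves 0.080 and -0.055 for *Hsp90b1* after subtraction. *Hspa5* differed by 0.062 log2 units (adjusted p = 0.448) with vehicle and -0.095 (adjusted p = 0.225) with PTH, with overlapping libraries, and *Dnajc3* by 0.076 (adjusted p = 0.307) and 0.0056 (adjusted p = 0.955). Of the 19 ER stress and ER folding genes outside the rule, 5 were higher and 7 lower in Y428F cells with each treatment, or 63.2% called, again near the share of all genes at 10 CPM or more. *Trib3* was higher by 0.75 log2 units (adjusted p = 3.85e-06) with vehicle and 0.84 (adjusted p = 1.6e-06) with PTH, and *Atf4* by 0.46 (adjusted p = 1.5e-05) and 0.84 (adjusted p = 3.49e-09), whereas *Ddit3* was lower with vehicle (-0.26, adjusted p = 0.015, lost without Y428F vehicle replicate 1).

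The DNAJC class, the largest and most diverse of the J-domain classes, had 25 tested genes, of which 6 were higher and 11 lower with vehicle, and 6 and 9 with PTH. Most of these genes (20 of 25) averaged 10 CPM or more. The 24% called higher with either treatment is under the 30.4% and 30.8% of all genes at that level, and the shares called lower were 44% with vehicle and 36% with PTH, the latter near the background of 33% and 33.3%. *Dnajc28* and *Dnajc18* were lower, at -1.20 log2 units (adjusted p = 3.95e-05) and -0.77 (adjusted p = 4.12e-09) with vehicle, and at -1.33 and -0.63 with PTH. *Dnajc12*, at 1.75 ± 0.236 CPM in the WT and 0.362 ± 0.347 CPM in the Y428F vehicle libraries, was lower, at -2.22 log2 units (adjusted p = 0.00263) and was not called with PTH (-1.05, adjusted p = 0.136). *Dnajc9*, a histone chaperone with a J domain, measured 31.8, 25.6 and 31.3 CPM in the WT and 40.3, 40.5 and 40.9 CPM in the Y428F vehicle libraries, 0.46 log2 units (adjusted p = 0.000217), and 0.69 (adjusted p = 1.73e-06) with PTH. Among the small heat shock genes, *Hspb6* (HSP20) was lower, at -0.30 log2 units (adjusted p = 0.000534) and -0.36 (adjusted p = 8.16e-05). *Dnajb5*, which was not called between the lines with vehicle (-0.19 log2 units, adjusted p = 0.0977) although the libraries did not overlap, was lower in Y428F cells with PTH, at 12.3, 13.1 and 13.2 CPM against 22.3, 19.99 and 20.7 CPM, -0.71 (SE 0.092, adjusted p = 1.75e-06).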

How the data were processed

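Reads of poly(A) libraries had been mapped by the authors with STAR 2.7.10b to GRCm39 with the GENCODE basic annotation vM31, and the deposited values are RSEM expected counts per gene, not scaled for depth or length. The strandedness of the libraries is not given in the sources used here. Expected counts were rounded to whole numbers. Symbols, positions and canonical transcripts came from GENCODE vM39, which matched 56236 identifiers and not the other 744. All 12 libraries were fitted together in R 4.3.3 with edgeR 4.0.16 (TMM, quasi-likelihood, a coefficient for each group, a minimum total of 10 counts a gene), and p-values were adjusted by Benjamini-Hochberg over 17691 genes in each of 5 comparisons. Log2 fold changes are PTH minus vehicle or Y428F minus WT. Levels are TMM-scaled CPM, given as libraries 1 to 3 of a group or as mean ± SD. In simulated counts the PTH comparison in WT cells recovered 74% of 1.5-fold and 98% of 2-fold changes. Between replicates, counts varied beyond sampling noise (chi-square per degree of freedom 2.94 to 15.2).

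Members and lists were chosen with earlier results of these data known. Named members were the 5 with the largest change in each direction per comparison (adjusted p under 0.05, mean of at least 2 CPM), a fixed list of main chaperones, the 3 largest changes among listed genes outside the rule, and *Bag3*, *Stip1*, *Ddit3* and *Serpinh1*. Other genes are named only to complete a count or an order and were picked after their values were seen. Lists are described by counts and medians, with no test. Alternatives were DESeq2 1.42.0, other scalings and count filters, stricter limits, the libraries of 1 line alone, the replicate number as a block and each library left out in turn. Promoters were read from GRCm39. Protein sequences were not analysed here.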

Additional observations from a re-analysis of the deposited data

How the results depend on the processing

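Most counts of called members moved by less than 1.5 times under the alternatives. No member called in a comparison changed direction in it under any of the alternatives listed above. The subtraction of chromosome medians is not among them, and it turned *Dnajc13* and *Hsp90b1* in sign between the lines with PTH. Of the values of single named genes, 24 changed sign under at least 1 of the listed alternatives, and none of these was called. Scaled by library totals, 10 members rose with PTH in WT cells in place of 17. With the libraries of the WT line alone, 12 rose and 4 fell with PTH in place of 17 and 4. With those of the Y428F line alone, 23 rose and 3 fell with PTH in place of 14 and 5. Which line had more members that rose thus depended on the fit. With stricter limits (adjusted p under 0.01, log2 fold change over 0.3 in size), 6 rose and 2 fell under PTH in the WT line and 3 rose and 1 fell in the Y428F line, 10 in place of 19 were lower in Y428F cells with vehicle, and 24 in place of 38 were higher with PTH. With each library left out in turn, members that rose and fell with PTH ranged from 10 to 21 and 2 to 5 in WT cells and from 9 to 17 and 1 to 6 in Y428F cells. Members higher and lower in Y428F cells ranged from 30 to 36 and 16 to 19 with vehicle and from 35 to 38 and 16 to 18 with PTH. For the difference in response the ranges were 0 to 0 and 0 to 1. In WT cells 2 members fell without WT vehicle replicate 3 or WT PTH replicate 1, and in Y428F cells the number that fell was 3 without Y428F vehicle replicate 1 or Y428F PTH replicate 2, 2 without Y428F vehicle replicate 2, and 1 without Y428F vehicle replicate 3 or Y428F PTH replicate 3. The cause of these moves was not tested, beyond the fewer libraries in the fits that left some out. Of the values of single named genes, 93 lost and 42 gained a call and 3580 kept their side. Genes at a few counts, such as *Dnaja4* in Y428F cells, are limited by depth.

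Same-numbered libraries did not deviate together (mean correlation 0.014 over 18 pairs, range -0.17 to 0.29, 11218 genes), so the numbers do not pair the libraries. With the replicate block, 18 members rose and 4 fell under PTH in the WT line, 15 and 5 in the Y428F line, 36 were higher and 19 lower in Y428F cells with vehicle, 38 and 18 with PTH, and 0 differed in response.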
